A study of Mus musculus with 12 samples.

Results

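The GATA factors are zinc finger transcription factors named after the DNA letters they bind, and the 5 described here are Gata1, Gata2, Gata3, Gata4 and Gata6. They were taken as the rows that carry those symbols in the FPKM table and the matching Ensembl gene IDs in the count table, 5 of 32285 gene IDs. Gata4 and Gata6, the pair of the endoderm, were set against Gata2 and Gata3, the pair of the trophoblast. All 5 passed the filter on low counts and were among the 18693 genes tested.

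RNA was sequenced from mouse embryonic stem (ES) cells of 3 genotypes, all labelled as the line E14Tg2a.IV, with 2 libraries in each of 6 groups. The genotypes were a Smad4 knockout (S4KO), a double knockout of Smad2 and Smad3 (S2/3DKO) and wild type (WT). Each was collected on day 4 after LIF had been removed and the cells grown as embryoid bodies, and on day 0 as undifferentiated ES cells. Smad2 and Smad3 are the transcription factors that activated Nodal and activin receptors switch on, and Smad4 is a common partner that the Smads of the BMP pathway also use. Genotypes are compared within each day, and days within each genotype. The labels do not say that replicates were separate cultures, so the spread behind each p-value may be technical. Whether a knockout line is 1 clone was not given in the sources used here.

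Gata6 and Gata4 are switched on in the primitive endoderm of the blastocyst and stay on in the visceral and parietal endoderm that it forms. Either factor, when forced on in ES cells, turns them towards extraembryonic endoderm. Gata3 and Gata2 act in the trophectoderm and its placental descendants, where they switch on trophoblast genes. Gata1 is the erythroid and megakaryocyte factor, and Gata2 also serves blood stem cells. Endoderm and trophoblast are both lineages that ES cells enter rarely under standard culture.

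Total counts per library lay between 31566376, in S4KO day 4 replicate 2, and 55806858. Ribosomal protein transcripts took 5.0% to 7.82% of the counts in 10 libraries, against 15.0% and 11% in those of WT day 0. The mitochondrial share was highest in S2/3DKO day 0 replicate 2, at 6.74% of its counts. The targeted genes were still transcribed: Smad2 had 46.7 to 48.3 CPM (counts scaled by TMM to a common library total) and Smad3 28.8 to 31.3 CPM in the S2/3DKO libraries of day 4, and Smad4 had 121 and 144 CPM in those of S4KO. In WT at day 4, Smad2 had 69.1 to 96.9 CPM, Smad3 47.7 to 50.3 CPM and Smad4 123 to 137 CPM. At day 0 the log2 fold changes against WT were 0.33 for Smad2 and 0.63 for Smad3 in S2/3DKO, and 0.82 for Smad4 in S4KO. Whole-gene counts cannot check the knockouts, since the deleted part is not known from the labels. Hprt, which the E14Tg2a line was isolated for lacking, had 169 to 212 CPM in the 4 S4KO libraries, against at most 0.724 CPM in the 8 S2/3DKO and WT libraries. That level goes against the line named for the libraries labelled S4KO, so S4KO here and below is the name the labels give. Xist had 33.2 to 115 CPM in S2/3DKO and 0.839 to 9.64 CPM in WT, and the Y-linked Eif2s3y had no counts in 3 of the 4 S2/3DKO libraries. The other, S2/3DKO day 4 replicate 1, had 84 counts of Eif2s3y (1.39 CPM). Eif2s3y had 57.6 to 85.7 CPM in WT and 31.4 to 47.3 CPM in S4KO, so S2/3DKO differed from WT in these sex-linked transcripts too. Differences between the lines and the effect of the knockouts cannot be told apart in any comparison of genotypes.

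All 5 are protein coding genes on separate chromosomes. In build mm10 Gata2 (ENSMUSG00000015053) spans chromosome 6, 88193891 to 88207032, Gata3 (ENSMUSG00000015619) chromosome 2, 9857078 to 9890034, and Gata1 (ENSMUSG00000031162) chromosome X, 7959260 to 7978071. Sequences of 3 of the 5 genes were matched in a RefSeq promoter table (build GRCm38.p6), those of Gata1, Gata2 and Gata3. Of the 3 genes matched, Gata2 and Gata3 had the highest levels, both in S2/3DKO. The 250 bases before both listed starts of Gata2 and the start of Gata3 are therefore shown. They run 5′ to 3′ on the gene's strand, with capitals marking a match to GGCGCC or, on either strand, to CAGAC, motifs bound by Smad proteins.
Gata2, chr6:88193641-88193890, plus strand: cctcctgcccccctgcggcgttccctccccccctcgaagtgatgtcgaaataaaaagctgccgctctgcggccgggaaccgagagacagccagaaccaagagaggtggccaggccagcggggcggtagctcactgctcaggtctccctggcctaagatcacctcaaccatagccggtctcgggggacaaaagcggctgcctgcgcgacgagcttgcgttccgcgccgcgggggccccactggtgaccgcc
Gata2, second start, chr6:88198414-88198663, plus strand: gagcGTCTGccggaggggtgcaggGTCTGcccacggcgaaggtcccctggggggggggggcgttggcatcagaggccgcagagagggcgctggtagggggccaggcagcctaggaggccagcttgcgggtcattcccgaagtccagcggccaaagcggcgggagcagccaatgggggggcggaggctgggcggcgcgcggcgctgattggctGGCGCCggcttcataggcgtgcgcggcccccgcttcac
Gata3, chr2:9878601-9878850, minus strand: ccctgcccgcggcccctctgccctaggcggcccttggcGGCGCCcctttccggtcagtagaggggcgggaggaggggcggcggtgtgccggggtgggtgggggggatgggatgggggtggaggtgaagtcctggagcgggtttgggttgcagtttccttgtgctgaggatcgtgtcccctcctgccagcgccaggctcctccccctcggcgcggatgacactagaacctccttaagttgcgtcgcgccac
The first Gata2 window lies just before the annotated gene, is 67.2% G or C and holds no match. The second lies inside the gene, in annotated exon sequence, is 74.0% G or C and holds 1 GGCGCC and 2 CAGAC. The Gata3 window lies in an intron of the longest Gata3 model, overlaps the antisense gene Gm13256 and is 70.0% G or C. It holds 1 GGCGCC, which begins 212 bases before the start, and no CAGAC. Of 32851 promoter windows of this length, 9.59% hold at least 1 GGCGCC. All 3 windows were also searched on both strands for the longer Smad motif GTCTAGAC, and the GATA motif AGATAA with its variant forms TGATAA, its variant AGATAG and its variant TGATAG, with 0 matches to any of them. Of all windows, 42.2% hold CAGAC, 0.167% hold GTCTAGAC and 26.5% hold a GATA motif. Their median is 52.4% G or C, below each of the 3 windows shown, and these shares are not matched for it. The Gata1 window, not shown, is 54.0% G or C and holds no GGCGCC and no CAGAC. All of these are matches of letters, not sites.

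**Figure D1:**
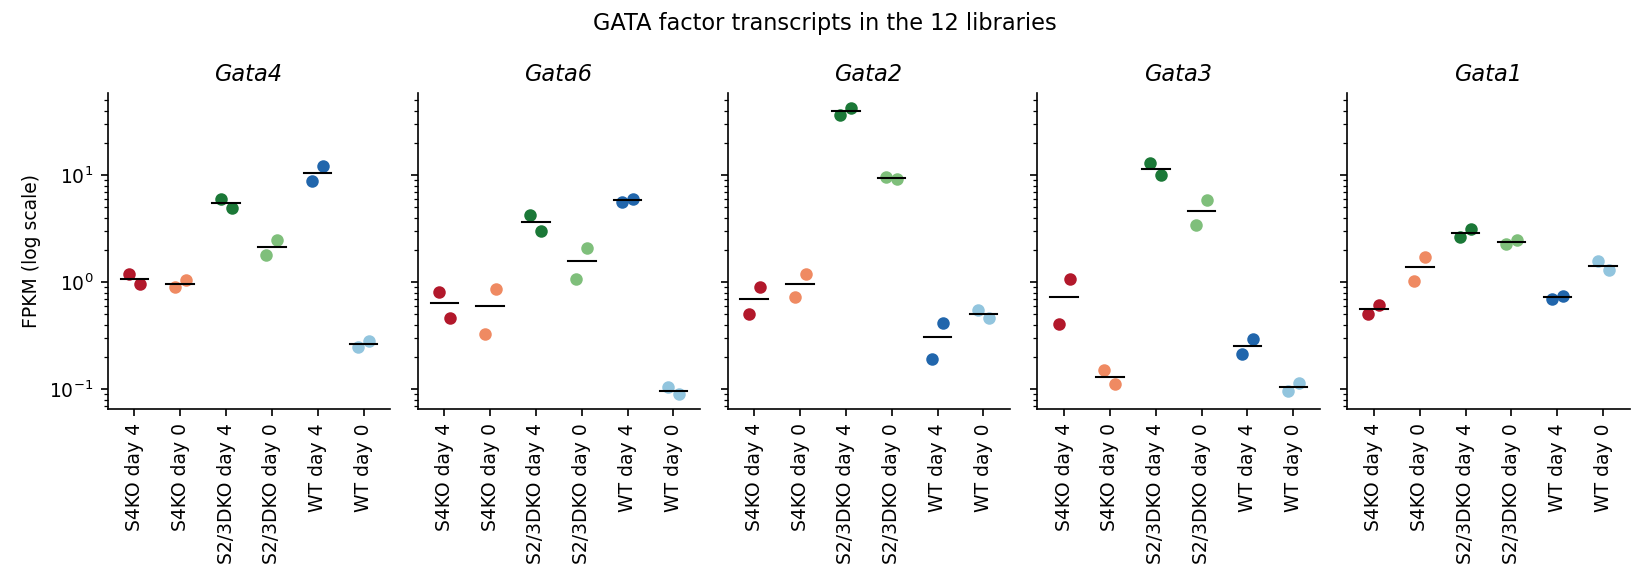
FPKM of the 5 genes on a log axis, 1 point per library and a line at the mean of each group of 2. Gata4 and Gata6 were highest in WT day 4, and Gata2 and Gata3 in S2/3DKO day 4, where Gata2 had 36.6 and 42.6 FPKM.

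The endoderm pair was switched on during WT differentiation. In build mm10 Gata4 (ENSMUSG00000021944) spans chromosome 14, 63198922 to 63271692, and Gata6 (ENSMUSG00000005836) spans chromosome 18, 11052064 to 11085635. Gata4 had 8.89 and 12.2 FPKM (a level corrected for gene length and library size) in WT at day 4, against 0.246 and 0.280 FPKM at day 0. Gata6 had 5.61 and 6.02 FPKM at day 4, against 0.104 and 0.0896 FPKM at day 0. For both genes the 2 days were far apart and did not overlap. In CPM Gata4 averaged 34.3 ± 7.92 at day 4 and 1.06 ± 0.0357 at day 0, and Gata6 averaged 18.4 ± 0.860 and 0.377 ± 0.0435 (SD, n = 2 each). The log2 fold changes were 5.02 ± 0.33 for Gata4 (edgeR quasi-likelihood test, Benjamini-Hochberg adjusted p = 2.76e-05) and 5.61 ± 0.59 for Gata6 (adjusted p = 0.000167), with SE. These were the 2 of 5 GATA genes called in that comparison, both higher, where 43.6% of all genes tested were called and 23.8% were higher. In bulk RNA, more cells of a type and more RNA per cell cannot be told apart, here or below.

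Before differentiation both genes were already higher in the knockouts than in WT. Gata4 had 0.892 and 1.04 FPKM in S4KO and 1.78 and 2.45 FPKM in S2/3DKO at day 0, against 0.246 and 0.280 FPKM in WT. Gata6 had 0.329 and 0.864 FPKM in S4KO and 1.08 and 2.07 FPKM in S2/3DKO, against 0.104 and 0.0896 FPKM in WT. No knockout library overlapped a WT library, and the replicates of Gata6 lay further apart in both knockouts than those of Gata4. In S2/3DKO the log2 fold changes were 2.74 ± 0.30 for Gata4 (edgeR adjusted p = 0.000497) and 3.70 ± 0.55 for Gata6 (0.00186), and both calls held in all 22 alternative fits, 12 of which leave out a library. In S4KO they were 1.66 ± 0.30 for Gata4 (edgeR adjusted p = 0.00834) and 2.36 ± 0.54 for Gata6 (0.0157). With the pair below, 4 of the 5 genes were called in S2/3DKO at day 0, all higher, where 31.0% of all genes tested were called and 16.7% were higher. In S4KO at day 0 these 2 of the 5 were called, where 19.6% of all genes were called and 10.5% were higher.

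The S4KO calls at day 0 did not hold in every alternative, and calls over all genes also became few: without WT day 0 replicate 1, 18 genes were called in that comparison, and 96 without S4KO day 0 replicate 1, against 3663 with all libraries. That of Gata4 was lost without WT day 0 replicate 1 (edgeR adjusted p = 0.111) and without S4KO day 0 replicate 1 (0.0526), and with limma on unfiltered log2(FPKM + 1) (0.10), within a range of 1.08e-05 to 0.111 over 22 alternatives. Its log2 fold change stayed between 1.60 and 1.74 with each library left out. That of Gata6 was lost without WT day 0 replicate 1 (edgeR adjusted p = 0.135), WT day 0 replicate 2 (0.0888) and S4KO day 0 replicate 2 (0.0716), and with limma on log2(FPKM + 1), filtered (0.136) or not (0.358), within a range of 0.000320 to 0.358. Its log2 fold change ran from 1.48 to 2.91 with each library left out, so its size moved more than that of Gata4.

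At day 4 the endoderm pair was low in S4KO and between S4KO and WT in S2/3DKO. Gata4 had 1.20 and 0.961 FPKM in S4KO and 6.01 and 4.88 FPKM in S2/3DKO, against 8.89 and 12.2 FPKM in WT. Gata6 had 0.810 and 0.464 FPKM in S4KO and 4.25 and 2.98 FPKM in S2/3DKO, against 5.61 and 6.02 FPKM in WT. The 3 genotypes did not overlap for either gene. In S4KO Gata4 was lower than in WT by 3.26 ± 0.30 on the log2 scale (edgeR adjusted p = 0.000550) and Gata6 by 3.17 ± 0.51 (0.0119). These were the 2 of 5 genes called in S4KO at day 4, both lower, where 1.73% of all genes tested were called and 1.05% were lower. Gata6 missed the threshold without S4KO day 4 replicate 1 (edgeR adjusted p = 0.0586, the highest of 22 alternatives, from 1.88e-08), while Gata4 was called in all 22. In S2/3DKO at day 4, Gata4 was lower than in WT by 1.05 ± 0.27 on the log2 scale (edgeR adjusted p = 0.0248). Gata6 had a log2 fold change of -0.81 ± 0.47 (adjusted p = 0.274). With the genes below, 4 of the 5 were called in S2/3DKO at day 4, 3 higher and 1 lower, where 15.2% of all genes tested were called, 7.21% higher and 8.0% lower. The Gata4 call was lost without WT day 4 replicate 2 (edgeR adjusted p = 0.0918), S2/3DKO day 4 replicate 1 (0.116) and S2/3DKO day 4 replicate 2 (0.201), with limma on log2(FPKM + 0.1) (0.0629) and with only the groups compared (0.0556), within a range of 0.00214 to 0.201 over 22 alternatives. The log2 fold change stayed between -1.20 and -0.85 with each library left out.

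Over 4 days the endoderm pair changed less in both knockouts than in WT, by the test of the difference that follows. In S4KO Gata4 averaged 3.58 ± 0.441 CPM at day 4 and 3.34 ± 0.269 CPM at day 0, and Gata6 averaged 2.03 ± 0.711 CPM and 1.95 ± 1.29 CPM (SD, n = 2 each). Those 2 days overlapped for both genes, with log2 fold changes of 0.10 ± 0.28 (edgeR adjusted p = 0.863) and 0.07 ± 0.49 (0.954). In S2/3DKO Gata4 averaged 16.6 ± 2.05 CPM at day 4 and 7.06 ± 1.35 CPM at day 0, and Gata6 averaged 10.5 ± 2.44 CPM and 4.93 ± 2.21 CPM. There the log2 fold changes were 1.23 ± 0.28 (edgeR adjusted p = 0.0266) and 1.10 ± 0.47 (0.177), and the days did not overlap. Tested as a difference of changes, S4KO minus WT was -4.92 ± 0.42 for Gata4 (edgeR adjusted p = 0.000430) and -5.54 ± 0.74 for Gata6 (0.0149). These were the 2 of 5 genes called in that test, where 0.150% of all genes tested were called and 0.139% had a smaller change in S4KO. S2/3DKO minus WT was -3.79 ± 0.41 for Gata4 (edgeR adjusted p = 0.00508) and -4.51 ± 0.72 for Gata6 (0.0145), and with Gata2 3 of the 5 were called. Of all genes tested 6.10% were called, 1.83% with a larger and 4.26% with a smaller change in S2/3DKO.

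Both Gata4 differences were called in all 22 alternatives. The Gata6 difference in S4KO was lost without WT day 0 replicate 1 (edgeR adjusted p = 0.129) and replicate 2 (0.0671), within a range of 7.80e-11 to 0.129. The Gata6 difference in S2/3DKO was lost without WT day 0 replicate 1 (0.0975) and replicate 2 (0.0570), and without S2/3DKO day 4 replicate 1 (0.0539) and replicate 2 (0.0786), and with limma on unfiltered log2(FPKM + 1) (0.0645), within a range of 1.36e-07 to 0.0975. With each library left out these Gata6 differences ran from -6.10 to -4.66 in S4KO and from -4.87 to -3.96 in S2/3DKO. The rise of Gata4 over 4 days in S2/3DKO was lost without either S2/3DKO day 4 library (edgeR adjusted p = 0.180 and 0.157), S2/3DKO day 0 replicate 1 (0.121) and either WT day 0 library (0.0514 and 0.0516), and with only the groups compared (0.0590), within a range of 0.000341 to 0.180. Its log2 fold change ran from 1.03 to 1.43 with each library left out.

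**Figure D2:**
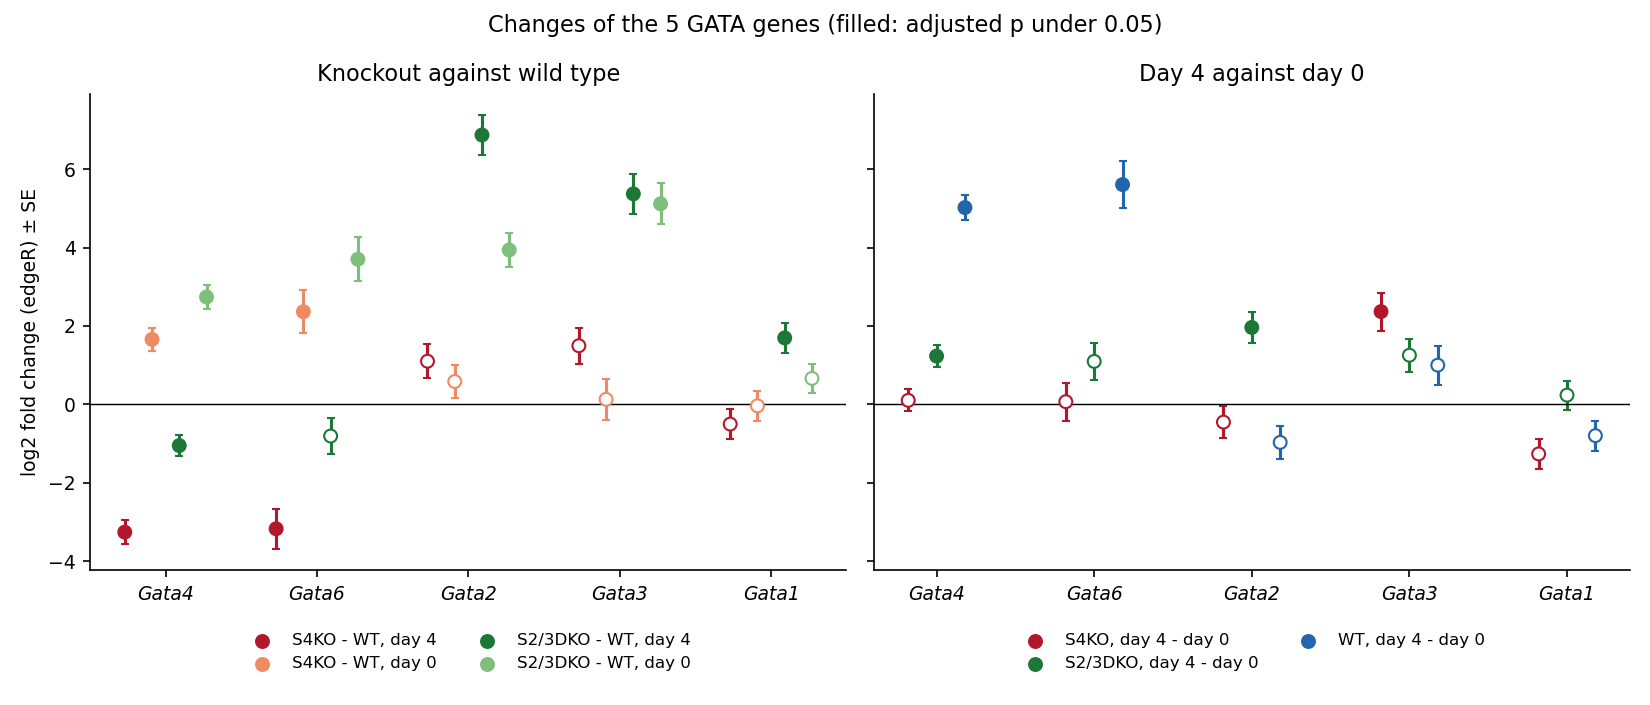
Log2 fold changes with SE of the 5 genes from the edgeR fit, knockout against WT on the left and day 4 against day 0 on the right, with filled points at an adjusted p under 0.05. Gata4 and Gata6 lay above 0 at day 0 and below 0 at day 4 in both knockouts, while Gata2 and Gata3 were called in S2/3DKO on both days and in S4KO on neither.

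The trophoblast pair was high in S2/3DKO on both days and low everywhere else. Gata2 had 36.6 and 42.6 FPKM in S2/3DKO at day 4, against 0.193 and 0.419 FPKM in WT. At day 0 it had 9.71 and 9.21 FPKM in S2/3DKO, against 0.554 and 0.458 FPKM in WT. Each S2/3DKO library exceeded every library of the other genotypes. In CPM, Gata2 averaged 129 ± 12.6 in S2/3DKO and 1.10 ± 0.588 in WT at day 4, and 33.0 ± 2.37 and 2.15 ± 0.414 at day 0 (SD, n = 2 each). The log2 fold changes were 6.87 ± 0.51 at day 4 (edgeR adjusted p = 4.06e-05) and 3.94 ± 0.44 at day 0 (0.000552).

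Gata3 had 12.9 and 10.1 FPKM in S2/3DKO at day 4, against 0.213 and 0.293 FPKM in WT. At day 0 it had 3.44 and 5.86 FPKM in S2/3DKO, against 0.0967 and 0.115 FPKM in WT. Its groups did not overlap on either day, as for Gata2. In CPM it averaged 34.0 ± 5.90 in S2/3DKO and 0.820 ± 0.168 in WT at day 4, and 14.2 ± 4.83 and 0.408 ± 0.0346 at day 0. The log2 fold changes were 5.37 ± 0.51 at day 4 (edgeR adjusted p = 0.000125) and 5.12 ± 0.52 at day 0 (0.000364). These 4 calls of Gata2 and Gata3 held in all 22 alternatives.

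In S4KO neither gene was called against WT. At day 4 Gata2 had 0.507 and 0.895 FPKM in S4KO, against 0.193 and 0.419 FPKM in WT, and Gata3 had 0.405 and 1.06 FPKM, against 0.213 and 0.293 FPKM. All of these S4KO libraries lay above those of WT, with log2 fold changes of 1.10 ± 0.43 for Gata2 (edgeR adjusted p = 0.259) and 1.5 ± 0.46 for Gata3 (0.140). For Gata3, DESeq2 gave an adjusted p of 0.0335, the lowest of the 22 alternatives (0.0335 to 0.706). At day 0 Gata2 had 0.719 and 1.20 FPKM in S4KO, against 0.554 and 0.458 FPKM in WT (log2 fold change 0.58 ± 0.41, edgeR adjusted p = 0.342), and Gata3 had 0.151 and 0.111 FPKM, against 0.0967 and 0.115 FPKM (0.13 ± 0.52, 0.896).

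Over 4 days the trophoblast pair moved differently by genotype. Gata2 rose in S2/3DKO by 1.96 ± 0.40 on the log2 scale (edgeR adjusted p = 0.0192), so that 2 of the 5 genes were called there, Gata2 and Gata4, where 7.03% of all genes tested were called and 3.57% were higher. In S4KO its log2 fold change was -0.45 ± 0.41 (edgeR adjusted p = 0.528) and in WT -0.97 ± 0.43 (0.0859). The difference of S2/3DKO from WT was 2.93 ± 0.58 (edgeR adjusted p = 0.0250). Gata3 was the 1 gene of the 5 called in S4KO over time, higher by 2.37 ± 0.49 (edgeR adjusted p = 0.0144), where 8.90% of all genes tested were called and 5.08% were higher. Its log2 fold changes were 1.25 ± 0.42 in S2/3DKO (edgeR adjusted p = 0.0961) and 1.0 ± 0.50 in WT (0.123), and its change did not pass as a difference from WT in S4KO (1.37 ± 0.69, 0.277) or in S2/3DKO (0.25 ± 0.66, 0.835).

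These changes over time did not pass in every alternative, while their sizes moved less. The rise of Gata2 in S2/3DKO was lost without any of its 4 libraries, at an edgeR adjusted p of 0.0764 and 0.0580 without day 0 replicates 1 and 2, and of 0.0757 and 0.139 without day 4 replicates 1 and 2, within a range of 3.68e-05 to 0.139. Its log2 fold change stayed between 1.82 and 2.03 with each library left out, and the genes called over time in S2/3DKO fell to 69 and 38 without day 4 replicates 1 and 2, against 1315 with all libraries. Its difference from WT was lost without WT day 0 replicate 1 (0.128) or 2 (0.0570), WT day 4 replicate 1 (0.0721), and S2/3DKO day 4 replicate 1 (0.0802) or 2 (0.104), within a range of 2.89e-05 to 0.128, at log2 values of 2.54 to 3.55 with each library left out. The rise of Gata3 in S4KO was lost without S4KO day 0 replicate 2 (edgeR adjusted p = 0.0887) and S4KO day 4 replicate 2 (0.136), with limma on log2(FPKM + 1), filtered (0.157) or not (0.355), and with only the groups compared (0.114), within a range of 8.24e-05 to 0.355. Its log2 fold change ran from 1.48 to 2.86 with each library left out.

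Other annotated genes overlap Gata3 and Gata6, and the library kit named in the labels does not mark strand. Their reads and those of the GATA gene may therefore not be separable where exons coincide. At Gata6, 1010001N08Rik lies on the opposite strand and shares 93 exonic bases. It had 3 and 0 counts in S4KO day 4, 43 and 33 in S2/3DKO day 4, 7 and 14 in S2/3DKO day 0 and 39 and 39 in WT day 4, with none in S4KO day 0 and WT day 0. Gata6 itself had 967 and 994 counts in WT day 4. At Gata3, 4930412O13Rik shares no exonic base and had 24 and 15 counts in S2/3DKO day 4 and none in the other 10 libraries. The overlapping 9230102O04Rik had 3 to 8 counts in each S2/3DKO library and none elsewhere, against 554 to 2309 for Gata3 there.

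Gata1, the blood factor of the family, passed in fewer comparisons than Gata2 or Gata4. It had 0.509 and 0.605 FPKM in S4KO and 2.64 and 3.12 FPKM in S2/3DKO at day 4, against 0.702 and 0.743 FPKM in WT. At day 0 it had 1.03 and 1.73 FPKM in S4KO and 2.27 and 2.50 FPKM in S2/3DKO, against 1.57 and 1.29 FPKM in WT. S2/3DKO lay above WT on both days without overlap, S4KO lay below WT at day 4, and S4KO overlapped WT at day 0. It passed in S2/3DKO at day 4, with a log2 fold change of 1.69 ± 0.38 (edgeR adjusted p = 0.0135). Leaving out WT day 4 replicate 1 ended that call (0.0621), as did leaving out S2/3DKO day 4 replicate 1 (0.0551) or replicate 2 (0.0990), within a range of 0.000146 to 0.0990 over 22 alternatives. In S2/3DKO at day 0 the log2 fold change was 0.66 ± 0.38 (edgeR adjusted p = 0.201), and in S4KO it was -0.50 ± 0.39 at day 4 (0.653) and -0.04 ± 0.38 at day 0 (0.969).

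Gata1 is X-linked, and X-linked genes as a whole differed between S2/3DKO and WT at day 0. The median log2 fold change of the 689 X-linked genes tested was 0.61 at day 0, with 207 called higher and 63 lower, against 0.00 for autosomal genes. At day 4 it was 0.04, with 135 higher and 94 lower, against -0.03 for autosomal genes. Other groups also lay above WT day 0 in this median, S4KO day 0 by 0.18 (autosomal 0.00) and WT day 4 by 0.40 (autosomal 0.07). Over 4 days in S2/3DKO the X-linked median was -0.02 (autosomal 0.02). The part of the X chromosome in the Gata1 values was not tested. Markers of blood cells were nearly absent: the summed level of Hba-x, Hbb-bh1, Hbb-y, Klf1 and Alas2 was at most 1.49 CPM in any library, and Hbb-y had no counts in any.

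Set against each other, the knockouts had their largest log2 fold changes among the 5 genes in Gata2 and Gata3, on both days. At day 4 all 5 genes were lower in S4KO than in S2/3DKO, where 12.3% of all genes tested were called and 6.45% were lower. Gata2 differed by -5.77 ± 0.48 on the log2 scale (edgeR adjusted p = 9.81e-05), Gata3 by -3.87 ± 0.47 (0.000711), Gata4 by -2.21 ± 0.29 (0.00101), Gata6 by -2.37 ± 0.50 (0.0112) and Gata1 by -2.20 ± 0.40 (0.00550). The Gata6 call was lost without S2/3DKO day 4 replicate 1 (edgeR adjusted p = 0.0687) and S4KO day 4 replicate 2 (0.0814), within a range of 2.28e-05 to 0.0814. At day 0, 3 of the 5 were lower in S4KO, where 5.53% of all genes tested were called and 3.38% were lower. Gata2 differed by -3.36 ± 0.43 (edgeR adjusted p = 0.00164) and Gata3 by -4.99 ± 0.52 (0.000673), in all 22 alternatives. Gata4 passed narrowly at -1.08 ± 0.28 (edgeR adjusted p = 0.0478) and was called in 7 of 22 alternatives (0.00213 to 0.263). Its call was lost with any of 9 libraries left out, all but both WT day 4 libraries and S2/3DKO day 0 replicate 1, at adjusted p-values up to 0.223. Gata6 did not pass (-1.34 ± 0.48, 0.137).

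The balance of the pairs separated S2/3DKO from WT day 4. In S2/3DKO day 4 Gata4 and Gata6 summed to 10.3 and 7.86 FPKM, and Gata2 and Gata3 to 49.4 and 52.6 FPKM. In WT day 4 the endoderm pair summed to 14.5 and 18.3 FPKM, and the trophoblast pair to 0.407 and 0.712 FPKM. The log2 ratio of the endoderm over the trophoblast pair, with 0.1 FPKM added to each sum, was 1.06 and -0.43 in S4KO day 4, on opposite sides of 0 in the 2 replicates, and 0.44 and 0.50 in S4KO day 0. It was -2.26 and -2.73 in S2/3DKO day 4, and -2.16 and -1.71 in S2/3DKO day 0. In WT it was 4.85 and 4.50 at day 4, and -0.74 and -0.52 at day 0. All 4 S2/3DKO libraries thus lay on the side of Gata2 and Gata3, and both WT day 4 libraries on the other. Gata2 alone made up 58.7% and 66.9% of the FPKM of the 5 genes in S2/3DKO day 4, and Gata4 57.0% and 62.1% in WT day 4. Gata1 made up 61.0% and 57.8% in WT day 0, when the sum was only 2.57 and 2.23 FPKM.

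**Figure D3:**
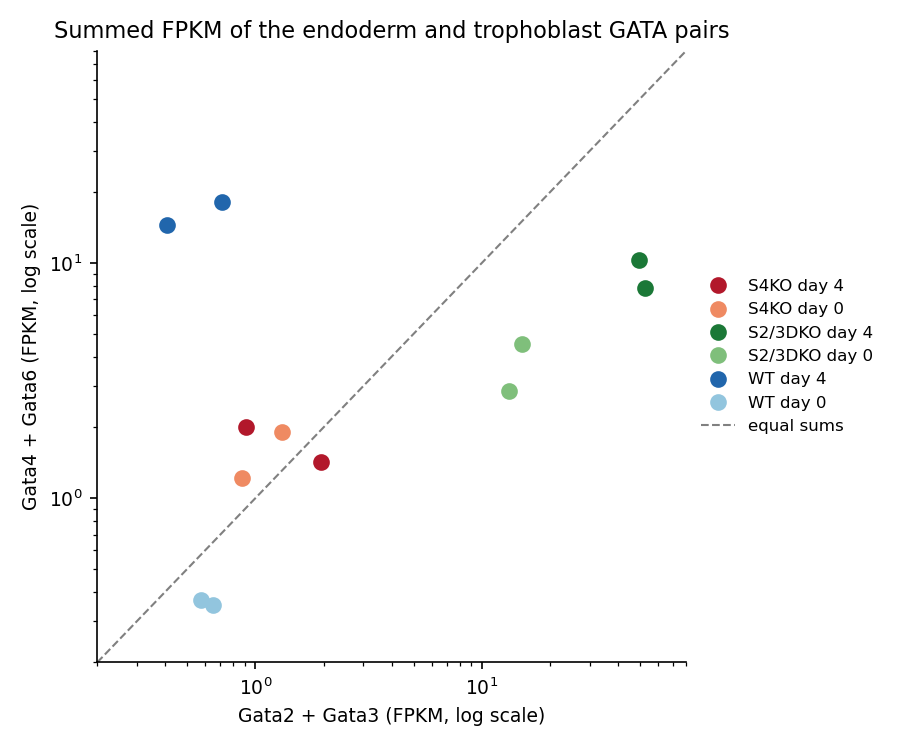
Summed FPKM of Gata4 and Gata6 against that of Gata2 and Gata3 on log axes, 1 point per library, with a dashed line where the sums are equal. The S4KO libraries lie near the line, S2/3DKO below it on both days, and WT day 4 far above it.

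Gata4 and Gata6 ran closely together over the 12 libraries, which share groups and scaling. Their Pearson correlation of log2 CPM was 0.98, and by rank it was 0.99. For Gata2 with Gata3 it was 0.91, and 0.58 by rank. Between the pairs the Pearson values lay between 0.26 for Gata2 with Gata4 and 0.49 for Gata3 with Gata6. By rank they lay between 0.021 for Gata2 with Gata4 and 0.57 for Gata3 with Gata4, so that by rank Gata3 was about as close to Gata4 as to Gata2. Gata1 was closest to Gata2, at 0.83 and by rank 0.85.

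The genes most like each member by that measure were read from the 12965 genes with an established name that averaged 1 CPM or more. For Gata4 they were Srgn, a proteoglycan core protein (r = 0.98), Gata6, Cemip, Myo7a and Adamts9. For Gata6 they were Gata4, Srgn, Pdgfra, a growth factor receptor of primitive endoderm (r = 0.96), Myo7a and Grk3. Srgn averaged 3.60 ± 0.280 CPM in S4KO, 19.2 ± 2.24 CPM in S2/3DKO and 56.2 ± 6.09 CPM in WT at day 4. In WT at day 0 it averaged 1.05 ± 0.0204 CPM. The order of the genotypes at day 4 was that of Gata4. By rank correlation of FPKM, 3 of the 5 genes of Gata4 and 4 of the 5 of Gata6 stayed among the top 5.

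For Gata2 the list held Vgll1 (r = 0.98), Syna, which encodes a placental membrane-fusion protein, Esx1, a homeobox gene of the placenta, Serpinb9d and Serpinb9g. For Gata3 it held Pcdh12, a protocadherin (r = 0.99), Irx4, the imprinted noncoding RNA H19, Afap1l2 and Serpinb9b. The Serpinb9 genes are close copies of each other, so their counts are uncertain. Serpinb9d and Serpinb9g had no counts in any S4KO or WT library. Vgll1 and Pcdh12 averaged at most 0.375 and 0.378 CPM in any S4KO or WT group. These genes reached the mean of 1 CPM only through S2/3DKO, where Gata2 and Gata3 were high, so their correlation restates that difference. Syna had a mean of 30.2 ± 0.0111 CPM in S2/3DKO, against 0.358 ± 0.0895 CPM in WT, at day 4, and H19 one of 7992 ± 1183 CPM against 92.1 ± 17.1 CPM. By rank, none of the 5 genes of Gata2 and 1 of the 5 of Gata3 stayed in the top 5, so these names depend on the measure. For Gata1 the list held Ikbke (r = 0.96), Tgm2, Tmem106a, Plet1 and Anxa1, of which 2 stayed by rank.

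Of 20 genes of the extraembryonic endoderm, a lineage of Gata4 and Gata6, 18 rose and none fell over 4 days in WT. The median log2 fold change was 4.71, against 0.08 over all genes tested, of which 23.8% rose and 19.9% fell. Pdgfra averaged 31.6 ± 4.71 CPM at day 4 and 0.401 ± 0.228 CPM at day 0, and Cubn, an endocytic receptor of visceral endoderm, averaged 334 ± 53.4 CPM and 0.642 ± 0.162 CPM. Their log2 fold changes were 6.28 ± 0.46 (edgeR adjusted p = 4.81e-05) and 9.01 ± 0.71 (5.53e-05). Foxa2, a forkhead factor of endoderm, averaged 37.8 ± 10.3 CPM at day 4 and had no counts at day 0. That puts it at least 10.1 log2 units higher if the day 0 group is set at 3 counts. Summed over 6 markers of definitive endoderm, WT had 286.5 to 374.5 CPM at day 4 and 114.5 to 115.7 CPM at day 0. On those days S2/3DKO had 156 to 185 CPM and 54.9 to 74.6 CPM. S4KO had 98.2 to 210 CPM and 25.7 to 42.6 CPM. Which endoderm the Gata4 and Gata6 values belong to was not tested.

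Genes of the extraembryonic endoderm list also rose over time in the knockouts. In S4KO 7 were higher and Lama1 was lower, although neither Gata4 nor Gata6 was called there. The median was 1.55, against 0.02 over all genes, of which 5.08% were higher and 3.81% lower. Cubn averaged 14.4 ± 0.881 CPM in S4KO at day 4 and 1.23 ± 0.840 CPM at day 0 (3.55 ± 0.56, edgeR adjusted p = 0.00531). In S2/3DKO 11 were higher and none lower (median 1.95), where 3.57% of all genes were higher and 3.46% lower. Pdgfra rose there by 1.91 ± 0.37 on the log2 scale (edgeR adjusted p = 0.0159). The S4KO count became 3 without either day 0 library and 2 without day 4 replicate 2, where Lama1 was lost too. The S2/3DKO count became 1 without day 0 replicate 1 or day 4 replicate 2, 6 without day 0 replicate 2 and 0 without day 4 replicate 1. Of all genes tested, 0.139% had a smaller change than in WT in S4KO and 4.26% in S2/3DKO. As a difference from WT, 6 of the 20 changed less in S4KO and 8 in S2/3DKO, and none more. Those counts ran from 3 (without WT day 0 replicate 2) to 10 (without S4KO day 0 replicate 2, or without WT day 4 replicate 2) in S4KO. In S2/3DKO they were 3 to 5 when WT day 0 replicate 1 or 2, WT day 4 replicate 1 or either day 4 library of S2/3DKO was left out.

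In S4KO at day 4, 12 of the 20 were lower than in WT and none higher. The median was -3.08, against -0.03 over all genes, of which 1.05% were lower and 0.679% higher. Lama1, a laminin chain of the basement membrane, averaged 38.8 ± 1.56 CPM in S4KO and 168 ± 37.9 CPM in WT, and Cubn averaged 14.4 ± 0.881 CPM and 334 ± 53.4 CPM. Those 2 were lower in S4KO than in WT by 2.12 ± 0.23 (edgeR adjusted p = 0.00156) and 4.54 ± 0.56 (0.00310) on the log2 scale. The count of 12 became 7 when S4KO day 4 replicate 1 was left out, and also when WT day 4 replicate 2 was. In S2/3DKO at day 4, 8 were lower and none higher (median -1.49), where 8.0% of all genes were lower and 7.21% higher. Among the 8 was Apob, a protein of lipid-carrying particles, at 4.28 ± 1.12 CPM in S2/3DKO and 183 ± 51.8 CPM in WT. Without WT day 4 replicate 2 a pair of genes were called higher. The count of 8 became 4 without S2/3DKO day 4 replicate 1 and 2 without replicate 2. Pdgfra, Sox7 and the collagens Col4a1 and Col4a2 were not among the 8.

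Before differentiation, 10 of the 20 were higher in S2/3DKO than in WT and Rbp4 was lower (median 1.31, or 1.71 with genes at 0 counts set to their bound). Over all genes 16.7% were higher and 14.4% lower. Pdgfra averaged 6.46 ± 2.44 CPM in S2/3DKO and 0.401 ± 0.228 CPM in WT, and Col4a1, a basement membrane collagen, averaged 186 ± 44.3 CPM and 18.4 ± 3.99 CPM. Without WT day 0 replicate 1 the count was 6, and the Rbp4 call was lost there and without either S2/3DKO day 0 library. In S4KO at day 0, 6 were higher and none lower (median 0.64, or 0.75 with bounds), with Pdgfra at 1.73 ± 0.0105 CPM. There 10.5% of all genes were higher and 9.14% lower. Leaving out replicate 1 of either genotype at day 0 left 0 genes called in S4KO, and leaving out WT day 0 replicate 2 left 2. For 10 extraembryonic endoderm markers the sums at day 0 were 14.6 to 15.6 CPM in S4KO, 30.8 to 41.6 CPM in S2/3DKO and 8.08 to 9.88 CPM in WT. Hnf4a made up most of the S4KO sum, at 9.20 CPM in S4KO, 13.9 CPM in S2/3DKO and 3.26 CPM in WT. Amn and Apoa1 lay lower in S4KO than in WT, at 0.309 and 0.191 CPM against 1.86 and 0.462 CPM. Ttr was at 0 in all 3 genotypes. Markers of ES cells summed to 3566 to 3630 CPM, 1958 to 3196 CPM and 4079 to 4324 CPM in those groups. The part of these cells in the Gata4 and Gata6 values was not tested.

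**Figure D4:**
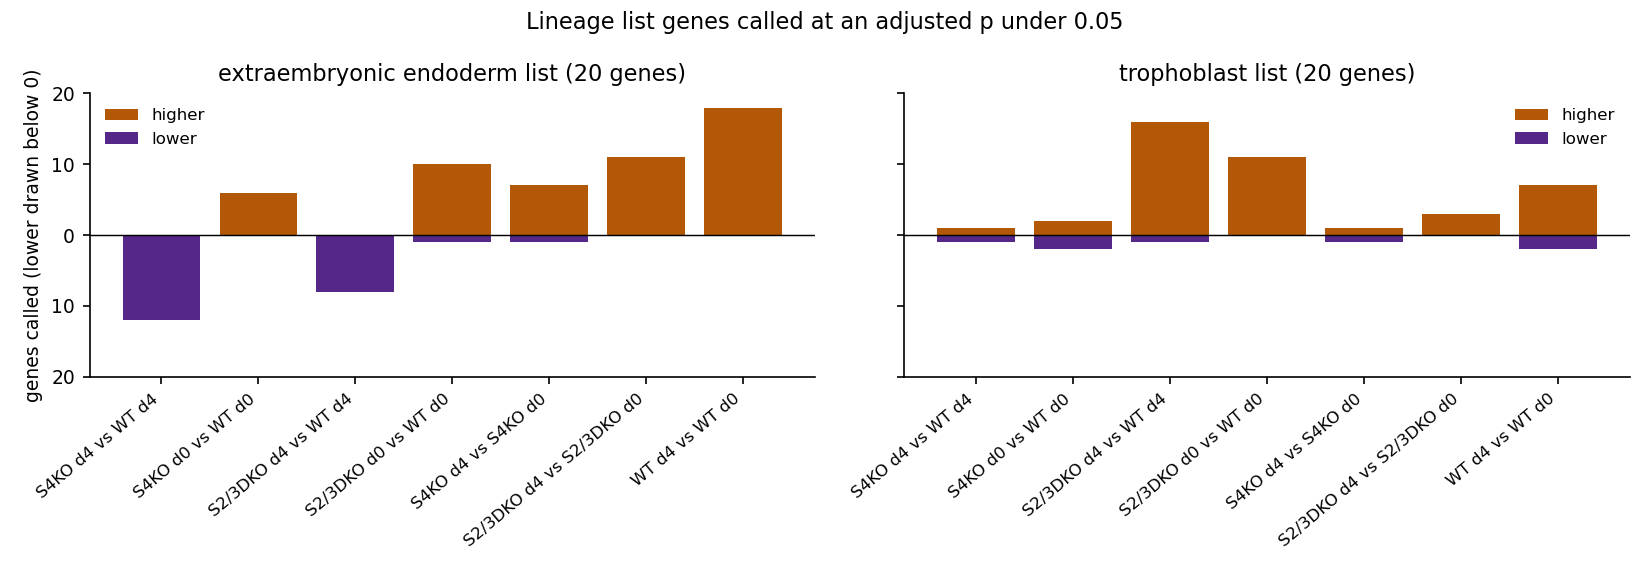
Number of genes called at an adjusted p under 0.05, higher above 0 and lower below it, in the extraembryonic endoderm and trophoblast lists of 20 genes each, for the 4 comparisons of knockout with WT and the 3 of day 4 with day 0. Endoderm genes were lower in both knockouts at day 4 (12 in S4KO and 8 in S2/3DKO), and 16 trophoblast genes were higher in S2/3DKO. Over all genes tested 1.05% were lower in S4KO at day 4, and 8.0% were lower and 7.21% higher in S2/3DKO.

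Of 20 trophoblast genes, 16 were higher in S2/3DKO than in WT at day 4 and 1 was lower. The median was 2.96, against -0.03 over all genes, of which 7.21% were higher and 8.0% lower. Plac1, a placental surface gene, averaged 65.5 ± 13.2 CPM in S2/3DKO and 0.439 ± 0.161 CPM in WT (log2 fold change 7.21 ± 0.58, edgeR adjusted p = 4.95e-05). Tfap2c, an AP-2 factor of trophoblast and germ cells, averaged 193 ± 2.77 CPM and 28.9 ± 4.06 CPM (2.74 ± 0.25, 0.000107). Pparg, a nuclear receptor needed in the placenta, averaged 32.4 ± 6.95 CPM and 0.151 ± 0.0307 CPM (7.73 ± 0.85, 0.000434). The gene that was lower was Eomes, which marks trophoblast stem cells and also the primitive streak. It averaged 6.54 ± 0.870 CPM in S2/3DKO and 245 ± 5.51 CPM in WT (-5.23 ± 0.29, edgeR adjusted p = 1.74e-05). Cdx2, also listed, averaged 1.91 ± 0.191 CPM and 1.44 ± 0.478 CPM. Over 4 days 7 of the 20 rose and 2 fell in WT, where 23.8% of all genes rose and 19.9% fell. In S2/3DKO 3 rose and none fell (3.57% and 3.46% of all genes). In S4KO 1 rose and 1 fell (5.08% and 3.81%). Those counts over time changed when single libraries were left out.

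At day 0, 11 of the 20 were higher in S2/3DKO than in WT and none lower (median 2.44, or 2.01 with bounds, against 0.02 over all genes). Of all genes tested 16.7% were higher there and 14.4% lower. Plac1 averaged 21 ± 5.70 CPM in S2/3DKO and 0.0599 ± 0.0847 CPM in WT, and Msx2, a homeobox gene, averaged 6.86 ± 1.60 CPM and 0.464 ± 0.0466 CPM. Pparg averaged 9.98 ± 3.71 CPM and had no counts in WT, at least 8.19 log2 units higher by the same floor. The count was 4 without WT day 0 replicate 1 and 6 without replicate 2. In S4KO 1 gene was higher and 1 lower at day 4, Tfap2c and Eomes, where 0.679% of all genes were higher and 1.05% lower. Tfap2c lost its call when replicate 1 of either genotype at day 4 was left out. At day 0 Eomes and Gcm1 were higher in S4KO and Krt18 and Krt19 lower, 2 of the 20 each way. These counts lay near the shares over all genes, of which 10.5% were higher and 9.14% lower. Those calls were lost when any 1 of the WT day 0 libraries or S4KO day 0 replicate 1 was left out. Without S4KO day 0 replicate 2 there were 5 lower genes. Against S2/3DKO at day 4, 17 of the 20 were lower in S4KO (12 to 17 with each library left out). Eomes was higher, and of all genes tested 6.45% were lower and 5.84% higher. The Eomes call was lost without either S2/3DKO day 4 library or S4KO day 4 replicate 2.

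Summed over 10 trophoblast markers, the day 4 libraries had 160 to 353 CPM in S4KO, 2386 to 2882 CPM in S2/3DKO and 250 to 450 CPM in WT. At day 0 they had 75.7 to 125 CPM in S4KO, 694 to 1089 CPM in S2/3DKO and 225 to 237 CPM in WT. The keratins Krt18 and Krt8 made up most of the S2/3DKO day 4 sum, at 1065 and 1032 CPM, against 195 and 114 CPM in WT. Hand1 averaged 67.3 CPM in S2/3DKO day 4 and 1.27 CPM in WT, while Elf5 and Cdx2 averaged only 2.73 and 1.91 CPM in S2/3DKO. Tpbpa, a gene of the placental spongiotrophoblast, had between 98 and 147 counts in S2/3DKO day 4 and none in any S4KO or WT library. The part of trophoblast cells in the Gata2 and Gata3 values was not tested.

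Of 15 cofactors and partners of GATA factors, 14 were tested. Over all genes tested 8.0% were lower and 7.21% higher in S2/3DKO than in WT at day 4 (median -0.03). Of the 14, 3 were lower there and none higher (median -0.67). They were Lmo2, at 0.188 ± 0.0844 CPM in S2/3DKO and 2.47 ± 0.239 CPM in WT, Tal1, at 0.147 ± 0.0260 CPM and 0.886 ± 0.210 CPM, and Runx1, at 1.27 ± 0.388 CPM and 4.27 ± 0.0895 CPM. Lmo2 and Tal1 form a blood complex with Gata1 or Gata2. Their log2 fold changes were -3.69 ± 0.53 (edgeR adjusted p = 0.00134), -2.57 ± 0.59 (0.0144) and -1.75 ± 0.46 (0.0262). The count of 3 became 1 without either S2/3DKO day 4 library, and without WT day 4 replicate 2 a gene was called higher. In S4KO at day 4 Runx1 (-2.04 ± 0.47, edgeR adjusted p = 0.0583) and Tal1 (2.03 ± 0.52, 0.0810) came nearest to the threshold, and 1 gene was called, lower, without either S2/3DKO day 0 library. Zfpm1, the cofactor also called Fog1, was not called in any comparison of genotypes or of days.

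Of 6 other genes with GATA zinc fingers, 5 were tested. At day 0, 1 was lower and none higher in each knockout, where 9.14% of all genes were lower in S4KO and 14.4% in S2/3DKO. With 5 genes tested, a count of 1 lies near those shares. Zglp1 was lower in both knockouts than in WT at day 0, at 2.06 ± 0.567 CPM in S4KO and 3.68 ± 2.51 CPM in S2/3DKO, against 10.8 ± 2.02 CPM in WT (log2 fold changes -2.39 ± 0.54, edgeR adjusted p = 0.0149, and -1.56 ± 0.53, 0.0430). The S2/3DKO call was lost without either WT day 0 library, S2/3DKO day 0 replicate 1 or either S2/3DKO day 4 library, and the S4KO call without replicate 1 of either genotype at day 0. Gata5, the third member of the Gata4 subfamily, did not pass the filter on low counts. It had 4 and 7 counts in S4KO day 4, 10 and 6 in WT day 4 and at most 2 in each of the other 8 libraries.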

How the data were processed

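Libraries came from 500 ng of RNA by a TruSeq kit (version 2), per the labels, and were grouped by genotype and day from their titles. The counts are whole numbers per Ensembl gene ID that the authors deposited with no scaling stated. Whether they tally reads directly is not stated there. The FPKM values, 1 row per symbol, were also deposited by the authors. Per the submitters' processing notes, StringTie, Cufflinks and DESeq2 were used, in roles not stated, on build mm10. Aligner, annotation and strand setting are not stated in them. Symbols were matched to 32158 of 32285 gene IDs through GENCODE M21.

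Counts were fitted with edgeR 4.0.16 (R 4.3.3; quasi-likelihood test, TMM scaling, filterByExpr), all 12 libraries and 1 coefficient per group, which kept 18693 genes. The SE is the log2 fold change divided by the square root of F, and the common biological coefficient of variation was 0.286. Genes were called at a Benjamini-Hochberg adjusted p below 0.05 over all genes. The script was tested on simulated data. CPM are scaled by TMM, and levels of different genes are compared only in FPKM.

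The members, 7 gene lists, tests and naming rule were chosen with earlier results of these data known. The rule took all members, the 5 genes of highest correlation with each in log2 CPM (prior count 2) and up to 4 genes of smallest p per list and comparison. Rbp4, Sox7, Cdx2, Hprt, Xist, Eif2s3y, Gata5 and Zfpm1, and genes named where they made up a count or a marker sum, were chosen after their values were seen. Alternatives were a minimum log2 fold change of 1, other filters, RLE size factors, DESeq2 1.42.0, limma 3.58.1 on log2(FPKM + 1) and log2(FPKM + 0.1), a replicate block, only the groups compared, a correction for length and GC content (99.9% of genes), and leaving out each library. The 22 alternatives counted beside a result exclude the minimum fold change, which gives no p of its own. Counts of list genes under these settings were added after seeing the data. Where 1 library of a group remained, its spread was taken from the other groups. Replicates within groups differed by more than counting noise, so none was a copy.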

Additional observations from a re-analysis of the deposited data

Results flagged for a closer look

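The change over 4 days differed between a knockout and WT for 3 of the 5 genes, by a test of the difference itself in the edgeR fit. On the log2 scale Gata4 changed by 4.92 less in S4KO than in WT, a difference of -4.92 (edgeR adjusted p = 0.000430), and Gata6 differed by -5.54 (0.0149). In S2/3DKO Gata4 differed from WT by -3.79 (edgeR adjusted p = 0.00508), Gata6 by -4.51 (0.0145) and Gata2 by 2.93 (0.0250). Both libraries of each knockout at day 4 lay below both of WT for Gata4 and Gata6, and both S2/3DKO libraries lay above WT for Gata2. The day 0 levels were on the other side for Gata4 and Gata6, since both knockouts exceeded WT there, and each difference sums the shift at both days. The Gata4 differences were called in all 22 alternatives, and those of Gata6 and Gata2 were lost without single libraries.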

How the results depend on the processing

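Outside leave-one-out, 573 of 605 member results kept direction and side of the threshold, 16 lost a call, 14 gained one and 2 uncalled results reversed. The 2 were Gata1 in S4KO against WT at day 0 (0.33) and Gata6 in S4KO over time (-0.079), both under the length and GC correction. The number of members called in S4KO over time was 1, and became 2 with DESeq2, with limma on log2(FPKM + 0.1) and with the length and GC correction, and 0 with limma on log2(FPKM + 1), filtered or not, and with only the groups compared. In S4KO against WT at day 0 it became 1 with limma on log2(FPKM + 1) and 0 without the filter. In S2/3DKO over time it became 4 with limma on log2(FPKM + 1) and 1 with only the groups compared. The cause was not tested. On the FPKM scale the median of all genes was up to 0.19 (log2), and under the length and GC correction as low as -0.11, both for WT over time, against 0.08. With each library left out the members called ran from 4 to 4 in S2/3DKO and 0 to 2 in S4KO against WT at day 0, and 2 to 4 and 1 to 2 at day 4. They ran from 2 to 3 and 4 to 5 in S4KO against S2/3DKO at day 0 and day 4, and over time from 0 to 2 in S4KO, 0 to 3 in S2/3DKO and 2 to 3 in WT. For the difference of changes they ran from 1 to 3 in S2/3DKO and 1 to 2 in S4KO. Uncalled values that reversed without some library ran from -0.50 to 0.32 for Gata1 and -0.12 to 0.36 for Gata3 in S4KO against WT at day 0, from -0.094 to 0.21 for Gata4, -0.51 to 0.92 for Gata6 and -0.94 to 0.010 for Gata2 in S4KO over time, and from -0.019 to 0.65 for Gata3 in the difference for S2/3DKO. The mean log2 ratio of the pairs was 0.47 in S4KO day 0, 0.29 with 1 FPKM added and 0.53 in CPM. It was 4.67 in WT day 4 and 3.48 with 1 FPKM added, and -0.63 in WT day 0, -0.24 with 1 FPKM added and -0.79 in CPM.

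The labels do not say that replicate numbers pair the samples. Same-numbered deviations from group means correlated between -0.21 and 0.49 over 15 pairs of groups, over 0.1 in 3, so the numbers were not used as pairs. With the replicate block the members called were 4 in S2/3DKO and 2 in S4KO against WT at day 0, 2 in S4KO against S2/3DKO at day 0 (Gata4 lost) and 3 in WT over time (Gata2 gained). All 5 likeness lists rest on 12 libraries. At these depths, Gata3 and Gata6 in WT day 0 rest on 16 to 20 counts a library, so small differences there were not detectable.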

Other observations

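Among 11 genes of BMP and Nodal signalling, S4KO had 5 lower and none higher against WT at day 0 (median log2 fold change -1.51, against 0.01 over all genes, of which 9.14% were lower), a count of 0 without WT day 0 replicate 1, 3 without replicate 2 and 1 without S4KO day 0 replicate 1. They were Id1, Id2, Id3, Smad7 and Lefty1. Id1, a BMP target, had 4.65 ± 0.0721 CPM in S4KO, against 50.04 ± 1.73 CPM in WT (log2 fold change -3.43 ± 0.46, edgeR adjusted p = 0.00515), and Id2 had 6.81 ± 0.268 CPM and 19.4 ± 1.21 CPM (-1.51 ± 0.27, 0.00872). In S2/3DKO 1 was higher and 3 lower (median -0.48, against 0.02, with 16.7% of all genes higher and 14.4% lower). Id2 was higher, at 107 ± 28.0 CPM (2.46 ± 0.28, edgeR adjusted p = 0.000600), and Lefty1, Lefty2 and Nodal were lower (5 lower without S2/3DKO day 0 replicate 1). Lefty1, a Nodal target that was lower in both knockouts, had 916 to 1550 counts in S4KO and 3 in each S2/3DKO library, against 9434 and 10396 in WT. Id2 thus lay on opposite sides of WT in the 2 knockouts, and S4KO differed from S2/3DKO by -3.97 ± 0.30 (edgeR adjusted p = 0.000111).

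Of 15 genes of blood and endothelium, 13 were tested. In S2/3DKO against WT at day 4, 1 was higher and 1 lower (median 0.14, against -0.03 over all genes). Those counts lay near the shares over all genes, of which 7.21% were higher and 8.0% lower. Cdh5, the endothelial cadherin, averaged 42.6 ± 6.58 CPM in S2/3DKO and 0.349 ± 0.103 CPM in WT at day 4 (6.92 ± 0.80, edgeR adjusted p = 0.000405), while Etv2, a factor of blood and vessel precursors, averaged 0.383 ± 0.205 CPM and 3.12 ± 1.71 CPM (-3.01 ± 0.64, 0.0101), a call that was lost without S2/3DKO day 4 replicate 2. Of 10 pluripotency factors, 4 fell over 4 days in S4KO (median -1.22), 7 in S2/3DKO (-1.78) and 10 in WT (-2.46), and none rose. Of all genes tested 3.81%, 3.46% and 19.9% fell in those groups. With each library left out these counts ran from 1 to 8, 0 to 7 and 9 to 10, and differences between them were not tested.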
